A study of Homo sapiens with 7 samples.

Results

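The lysosome and autophagy genes are a set of 47 named genes that encode lysosomal membrane proteins, lysosomal hydrolases, the proton pump, the TFEB family of transcription factors and the machinery of autophagy. They were chosen by symbol, and 43 of them matched a symbol in the authors' gene tables, to which CTSL1 was added under its current symbol CTSL. These 44 genes were measured among 10452 genes with at least 10 CPM (the read count scaled by library total) in 2 or more of the libraries, out of 25702 gene IDs with counts. For this limit CPM was taken on library totals, and all CPM values given here are also scaled by the TMM factor of the library. GAA, SGSH and TFEB were below that limit and are not among the 44, and TFEB is also given from a fit with a limit of 1 CPM.

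RNA was sequenced from 7 lines of K562, from each of which 1 library was made. K562 is an established line from chronic myeloid leukemia and depends on its BCR::ABL1 fusion kinase. The controls were the drug naive line and a line kept in 0.1% DMSO, the drug vehicle. The DasR lines are K562 cells made resistant to dasatinib, an inhibitor of BCR::ABL1 and other tyrosine kinases, with early stage lines at 10, 15 and 25 nM and late stage lines at 50 and 200 nM. All DasR lines are successive intermediates of a single dose escalation, so that they are not independent derivations, and the stages were defined by the study from the clustering of these same libraries. Total counts were 21007761 in the naive line, 24037893 in the DMSO line, 27808639, 27844799 and 20059656 in the 10, 15 and 25 nM lines, and 20827519 and 21588772 in the 50 and 200 nM lines. Each line was sequenced once, so that different lines stand as replicates of a group, and p-values measure the spread between lines of a group.

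Lysosomes are acidic compartments in which hydrolases break down proteins, lipids and sugars, and a proton pump of many subunits, the V-ATPase, keeps them acidic. In autophagy, a membrane grows around cytoplasm or an organelle, closes to form an autophagosome and fuses with the lysosome. The kinase ULK1 starts this process, lipid kinase and ATG proteins extend the membrane, and proteins of the ATG8 family are attached to it, where cargo receptors bind them. TFEB, TFE3 and MITF are related transcription factors that bind E-box sequences in the promoters of many lysosomal genes.

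Promoters were searched for the palindromes TCACGTGA and CACGTG, the longer of which contains the shorter, in windows from 250 bases before to 50 bases after each RefSeq gene start (GRCh38.p14). A window was found for 37 of the 47 genes. TCACGTGA was present in 6 of them, or 16.2%, against 1.18% of all 27305 genes with a window and 2.53% of the 8339 measured genes with one. CACGTG was present in 9, or 24.3%, against 8.77% and 13.3%. The longer motif occurred in LAMP1, MCOLN1, ATP6V0D1, CTSA, ATG3 and GAA, and the shorter also in NEU1, CTSD and CD63. The stretches from 80 bases before to 13 bases after the start are shown for the 5 measured genes with the longer motif, because their values can be read beside it, with each copy of either motif in capitals and each sequence given 5′ to 3′ on the strand of its gene.
LAMP1 (chr13:113297159-113297251, plus strand): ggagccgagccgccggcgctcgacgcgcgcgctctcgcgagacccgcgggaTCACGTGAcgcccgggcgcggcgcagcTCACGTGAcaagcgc
MCOLN1 (chr19:7522544-7522636, plus strand): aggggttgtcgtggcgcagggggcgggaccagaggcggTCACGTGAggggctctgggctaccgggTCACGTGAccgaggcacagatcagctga
ATP6V0D1 (chr16:67481145-67481237, minus strand): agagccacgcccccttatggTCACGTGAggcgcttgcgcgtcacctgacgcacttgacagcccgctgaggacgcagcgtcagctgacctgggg
CTSA (chr20:45891255-45891347, plus strand): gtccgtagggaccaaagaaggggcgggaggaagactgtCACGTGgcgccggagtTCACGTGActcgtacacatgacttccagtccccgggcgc
ATG3 (chr3:112561950-112562042, minus strand): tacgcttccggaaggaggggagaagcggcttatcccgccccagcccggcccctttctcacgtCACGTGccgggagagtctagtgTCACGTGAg
LAMP1 and MCOLN1 each held 2 copies of the longer motif. Of these 5 genes, LAMP1, MCOLN1 and ATP6V0D1 were higher at an FDR under 0.05 in both stages, as described below, while CTSA and ATG3 were not past that limit in either. Among all 211 measured genes with TCACGTGA in a window, 26.1% were higher at this limit in early stage lines and 23.2% in late stage lines, against 22.7% and 16.2% of the measured genes without it. Lower values at this limit were found in 14.7% and 9.48% of the genes with it, against 24.1% and 17.8% of those without it. No copy of either motif was found in the windows of NBR1, MAP1LC3B, WIPI1 or ULK1, nor in those of TFEB, TFE3 and MITF. The same held for ATG16L1, CTSZ and CTSC, which were higher at an FDR under 0.05 in 1 or both stages. ATP6V1A, UVRAG and ATP6V0E1, each higher at this limit in 1 stage, had no window and were not searched. Nor was there a window for ATP6V1B2 and HEXA, which fell as described below. Of the 30 measured members with a window but no TCACGTGA, 2 were higher and 11 lower at this limit in the early stage. In the late stage 2 were higher and 8 lower. A match describes letters in a window and does not show binding.

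In early stage lines, 5 of the 44 genes fell and none rose against the controls. The genes that fell were NBR1, MAP1LC3B, ULK1, WIPI1 and ATP6V1B2, of which all but ATP6V1B2 act in autophagy. The test was the quasi-likelihood F test of edgeR, with p-values adjusted over all genes (Benjamini-Hochberg, FDR), at the study's limit of 0.005. Across all genes 10.1% fell and 7.92% rose at this limit, so that the count of genes that fell is near the background. The median log2 fold change was -0.16 for the 44 genes and 0.00 for all genes. At an FDR under 0.05, 7 of the 44 were higher and 14 lower, against 22.6% and 24% of all genes. DESeq2 at an FDR of 0.005 called 2 of the 44 higher and 11 lower, against 16.4% and 17.6% of all genes. In edgeR, 24 of the 44 had an unadjusted p under 0.05, against 54.2% of all genes. In 10 of the 44 every early stage line was above both controls and in 19 every one was below them, against 35.5% and 35.1% of all genes. All these values are from bulk RNA, in which fewer cells of a type and less RNA per cell cannot be told apart.

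In late stage lines, 2 of the 44 genes fell, NBR1 and the hydrolase gene HEXA, and none rose. Of all genes, 4.56% fell and 3.42% rose. The median log2 fold change was -0.18 for the 44 genes and 0.00 for all genes. At an FDR under 0.05, 6 were higher and 11 lower, against 16.2% and 17.6% of all genes. DESeq2 called 4 higher and 9 lower at 0.005, against 11.5% and 12.5% of all genes. In edgeR, 25 of the 44 had an unadjusted p under 0.05, against 45.9% of all genes. In 11 of the 44 both late stage lines were above both controls and in 21 both were below, against 33.6% and 34.9% of all genes. Both stages were compared with the same 2 control libraries, so that their fold changes are not independent. The count in late stage lines fell to 0 without the naive, DMSO, 50 nM or 200 nM library, each of which leaves a group with a single library that is assumed to vary like the others. The early stage count was 2 without the naive or the DMSO library, 3 without the 15 nM library and 1 without the 25 nM library, and NBR1 was called in each of these.

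**Figure D1:**
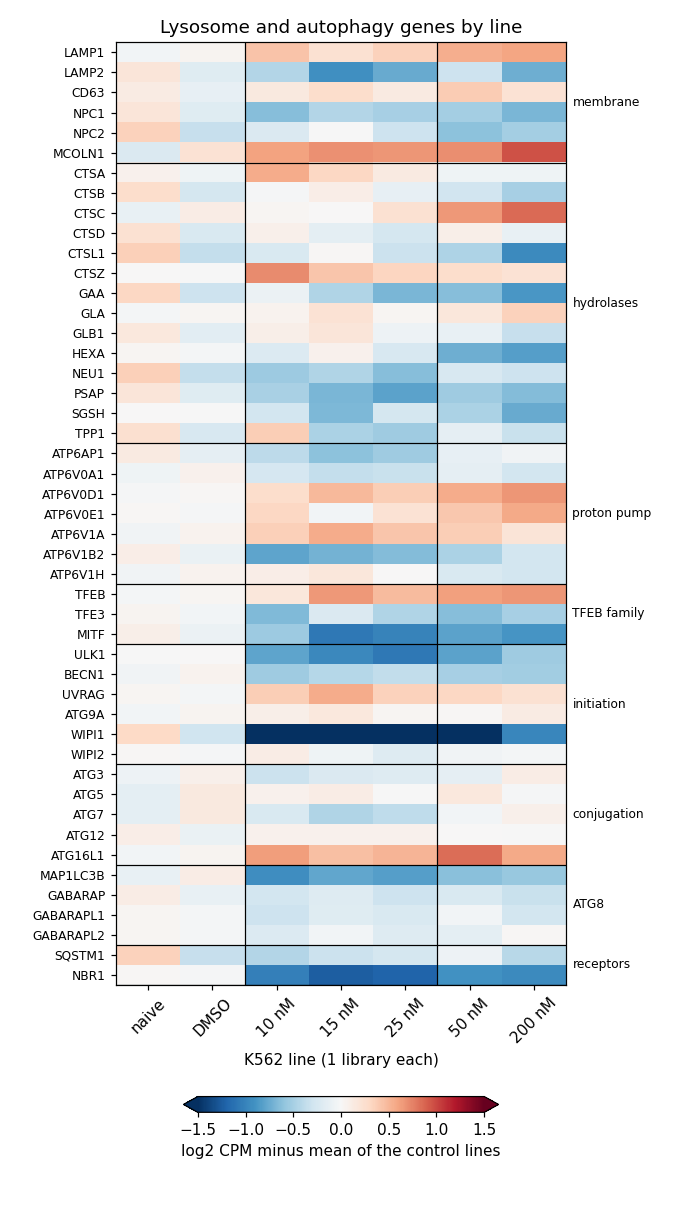
Each row is 1 of the 47 genes and each column 1 K562 line, with color giving log2 CPM minus the mean of the 2 control lines, and black lines separating gene classes and the control, early and late stage lines. NBR1, MAP1LC3B, ULK1, WIPI1 and MITF are among the genes lower in all 5 DasR lines. LAMP1, MCOLN1, ATP6V0D1 and ATG16L1 are among those higher in all of them. Of all genes, every line was below both controls in 35.1% in the early stage and in 34.9% in the late stage. Every line was above both controls in 35.5% and 33.6%.

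Among the cargo receptors, NBR1 had the smallest p-value of the 44 genes in both stages. NBR1 (chr17:41322498-41363708 in GRCh37, plus strand) binds ubiquitin and ATG8 proteins and carries ubiquitin-tagged cargo into autophagosomes. It was at 180 CPM in the naive and 175 CPM in the DMSO line, at 87.3, 75.7 and 77.1 CPM in the 10, 15 and 25 nM lines, and at 94.3 and 91.8 CPM in the 50 and 200 nM lines. All DasR lines were below both controls, and the late stage lines were above the early stage lines. The decrease was 2.22-fold in the early stage (log2 fold change -1.15, SE 0.09, edgeR FDR 0.000213) and 1.91-fold in the late stage (log2 fold change -0.94, SE 0.10, edgeR FDR 0.00131). SQSTM1, which encodes the receptor p62, overlapped between the groups, with 238 CPM in the naive and 147 CPM in the DMSO line against 138 to 178 CPM in the DasR lines, and did not pass the test (edgeR FDR 0.157 and 0.365 in the early and late stage).

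The ATG8 family encodes the small proteins that are linked to lipid on the autophagosome. MAP1LC3B (chr16:87417559-87438385 in GRCh37, plus strand), whose protein LC3B is the usual marker of autophagosomes, was at 144 and 167 CPM in the naive and DMSO lines. It was at 81.2, 90.4 and 87.3 CPM in the 10, 15 and 25 nM lines and at 100 and 104 CPM in the 50 and 200 nM lines. All 5 DasR lines lay below both controls. The early stage value was 1.80-fold lower (log2 fold change -0.85, SE 0.10, edgeR FDR 0.000814). In the late stage the log2 fold change was -0.60 (SE 0.11), at an FDR of 0.00631 that missed the limit. MAP1LC3B overlaps FBXO31 on the opposite strand by 8190 bases, and the near-identical gene MAP1LC3B2 had between 3.43 and 7.93 CPM. The strand setting of the counting is not given in the sources used here, so that reads of these genes could be divided in ways that cannot be checked. FBXO31 itself was at 30.5 and 30.9 CPM in the controls and at 24.7 to 26.5 CPM in the DasR lines.

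The GABARAP branch of the family showed smaller differences. GABARAP was at 94.0 and 80.03 CPM in the naive and DMSO lines, at 71.7, 75.9 and 69.9 CPM in early stage lines and at 74.1 and 68.9 CPM in the late stage lines. GABARAPL1 was at 23.3 and 22.4 CPM in the controls, 18.3, 20.2 and 19.5 CPM in early stage lines and 22.2 and 18.8 CPM in late stage lines. GABARAPL2 was at 67.0 and 64.6 CPM in the controls, 56.8, 63.7 and 57.4 CPM in early stage lines and 59.4 and 66.8 CPM in late stage lines. In all 4 genes of the family every early stage line lay below both controls, an arrangement found in 35.1% of all genes. The 3 GABARAP genes did not pass the test in either stage, with log2 fold changes between -0.26 and -0.15 in the early stage and between -0.29 and -0.06 in the late stage. Scaled by transcript length, the control means were 97.4 CPM per kilobase for GABARAP, 67.8 for MAP1LC3B, 65.7 for GABARAPL2 and 12.2 for GABARAPL1.

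**Figure D2:**
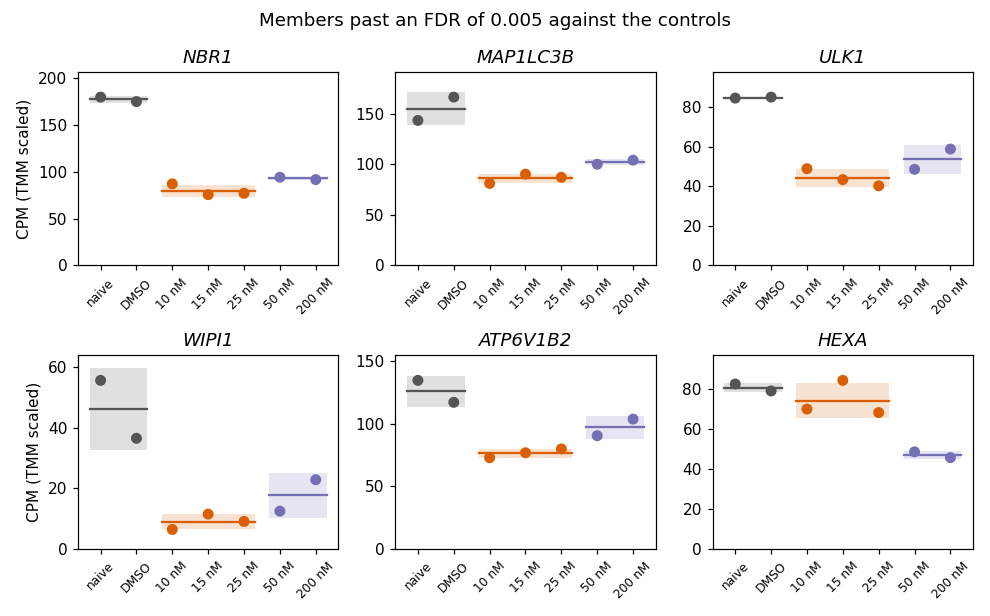
CPM (TMM scaled) in each of the 7 K562 lines for the 6 genes past an FDR of 0.005 in either stage, with gray points for controls, orange for early and purple for late stage lines, lines for group means and bands for 1 SD. NBR1 falls from 175 CPM or more in the controls to 94.3 CPM or less, whereas HEXA is lower in the 50 and 200 nM lines (48.5 and 45.6 CPM).

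Of the 6 genes of autophagy initiation and membrane supply, ULK1 and WIPI1 fell in the early stage, against 10.1% of all genes. ULK1 (chr12:132379167-132407695 in GRCh37, plus strand), the kinase that starts autophagosome formation, was at 84.6 and 85.1 CPM in the naive and DMSO lines. It was at 48.9, 43.4 and 40.2 CPM in early stage lines and 48.6 and 58.8 CPM in late stage lines, with every DasR line below both controls. Its early stage decrease was 1.92-fold (log2 fold change -0.94, SE 0.12, edgeR FDR 0.00121), and the late stage log2 fold change was -0.66 (SE 0.13) at an FDR of 0.00988. WIPI1 (chr17:66417089-66453654 in GRCh37, minus strand), which binds phosphatidylinositol 3-phosphate on the growing membrane, had the largest fold change of the 44 genes in both stages. It was at 55.7 and 36.5 CPM in the naive and DMSO lines, 6.35, 11.4 and 9.01 CPM in early stage lines, and 12.4 and 22.8 CPM in the late stage lines. No DasR line reached either control, but the controls differed 1.53-fold and the late stage lines 1.84-fold. The early stage decrease was 5.16-fold (log2 fold change -2.37, SE 0.33, edgeR FDR 0.00187), and the late stage log2 fold change was -1.39 (SE 0.37, edgeR FDR 0.0261). WIPI1 overlaps ARSG on the opposite strand by 1784 bases, and ARSG was at 3.02 to 6.06 CPM in the 7 lines.

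The other 4 genes of this class did not pass the limit. BECN1, the scaffold of the lipid kinase complex, had log2 fold changes of -0.44 (edgeR FDR 0.00957) and -0.52 (edgeR FDR 0.012) in the early and late stage. UVRAG, a partner of BECN1, was higher in every DasR line, at 37.3 to 46.9 CPM against 32.6 and 31.1 CPM in the controls, with an early stage log2 fold change of 0.43 (edgeR FDR 0.0138) and a late stage value of 0.26 (edgeR FDR 0.111). ATG9A, a lipid scramblase on the vesicles that seed the membrane, and WIPI2 stayed within 0.10 of 0 on the log2 scale in both stages. Among the 5 genes that conjugate ATG8 proteins to lipid, ATG16L1 was at 17.7 and 18.6 CPM in the controls and at 24.8 to 32.3 CPM in the DasR lines, with log2 fold changes of 0.53 (edgeR FDR 0.0123) and 0.70 (edgeR FDR 0.00895). ATG3, ATG5, ATG7 and ATG12 were past an FDR of 0.05 in neither stage, and the log2 fold change of ATG7 was -0.36 in the early stage (edgeR FDR 0.0504) and 0.01 in the late stage.

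The 7 V-ATPase genes included values in both directions. At an FDR of 0.005, 1 of them fell in the early stage, against 10.1% of all genes, and none passed in the late stage. ATP6V1B2, a subunit of the part that hydrolyzes ATP, was at 135 and 117 CPM in the naive and DMSO lines, at 72.9, 76.9 and 79.9 CPM in early stage lines and at 90.5 and 104 CPM in the late stage lines. The groups did not overlap, and the late stage lines lay between the other groups. It fell 1.65-fold in the early stage (log2 fold change -0.72, SE 0.10, edgeR FDR 0.00187), and its late stage log2 fold change was -0.38 (SE 0.11, edgeR FDR 0.0381). ATP6V1A, which encodes the other subunit of the ATP-hydrolyzing ring, had a positive log2 fold change of 0.44 in the early stage (edgeR FDR 0.0108) and 0.28 in the late stage (edgeR FDR 0.0887). ATP6V0D1, a subunit of the stalk that joins both parts of the pump, was at 43.1 and 44.1 CPM in the controls and at 52.2 to 68.9 CPM in the DasR lines. Its log2 fold changes were 0.37 (edgeR FDR 0.0172) and 0.61 (edgeR FDR 0.00611). ATP6AP1, an accessory protein of pump assembly, was at 205 and 170 CPM in the controls, at 122 to 142 CPM in early stage lines and at 172 and 179 CPM in the late stage lines. Its early stage log2 fold change was -0.52 (edgeR FDR 0.00803) and its late stage value -0.10 (edgeR FDR 0.571). ATP6V0A1 had log2 fold changes of -0.31 (edgeR FDR 0.0236) and -0.20 (edgeR FDR 0.142) in the early and late stage. Those of ATP6V0E1 were 0.17 (edgeR FDR 0.307) and 0.49 (edgeR FDR 0.0327). ATP6V1H was past an FDR of 0.05 against the controls in neither stage.

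Of the 6 lysosomal membrane genes, none passed the limit of 0.005. At this limit 10.1% of all genes fell and 7.92% rose in the early stage. In the late stage 4.56% fell and 3.42% rose, so that no call among 6 genes is near the background. LAMP1, the most used marker of the lysosomal membrane, was at 54.1 and 57.5 CPM in the naive and DMSO lines, at 74.9, 65.3 and 71.0 CPM in early stage lines and at 81.6 and 84.1 CPM in the late stage lines, with no overlap between the groups. Its log2 fold change was 0.33 (SE 0.09, edgeR FDR 0.021) in the early stage and 0.57 (SE 0.10, edgeR FDR 0.00631) in the late stage. LAMP2, which encodes the other main membrane protein, was at 230 and 179 CPM in the controls and at 107 to 164 CPM in the DasR lines, with log2 fold changes of -0.70 (edgeR FDR 0.0207) and -0.52 (edgeR FDR 0.0945). MCOLN1, a calcium channel of the lysosome, was at 7.10 and 9.66 CPM in the controls and at 12.6 to 16.0 CPM in the DasR lines, with log2 fold changes of 0.63 (edgeR FDR 0.0275) and 0.81 (edgeR FDR 0.0208). NPC1, which exports cholesterol, had log2 fold changes of -0.53 (edgeR FDR 0.0133) and -0.61 (edgeR FDR 0.0173), while those of its soluble partner NPC2 and of CD63 were past an FDR of 0.05 in neither stage.

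HEXA was the only 1 of the 12 measured hydrolase and activator genes to pass the limit. In the late stage, where it passed, 4.56% of all genes fell. HEXA (chr15:72633265-72668761 in GRCh37, minus strand), the alpha subunit of beta-hexosaminidase, which degrades gangliosides, was at 82.4 and 79.0 CPM in the naive and DMSO lines and at 69.9, 84.3 and 68.2 CPM in early stage lines. In the 50 and 200 nM lines it was at 48.5 and 45.6 CPM, below all other lines, while the early stage lines overlapped the controls. The late stage decrease was 1.72-fold (log2 fold change -0.78, SE 0.12, edgeR FDR 0.00467), and the early stage log2 fold change was -0.12 (SE 0.11, edgeR FDR 0.396). The call in the late stage lay close to the limit and was lost in 10 of 14 alternatives, with FDR values of at most 0.0303. The overlapping antisense gene HEXA-AS1 was below 1 CPM in all lines.

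PSAP, the precursor of the saposins that help degrade sphingolipids, was the most abundant of the 44 genes, with a control mean of 351 CPM per kilobase. It was at 1122 and 865 CPM in the naive and DMSO lines and at 563 to 703 CPM in the DasR lines, with log2 fold changes of -0.67 (edgeR FDR 0.00772) and -0.61 (edgeR FDR 0.0228). CTSC, a protease that activates serine proteases of leukocyte granules, was at 106 and 123 CPM in the controls, at 114 to 134 CPM in early stage lines and at 179 and 205 CPM in the late stage lines. Its log2 fold change was 0.08 (edgeR FDR 0.579) in the early stage and 0.74 (edgeR FDR 0.00593) in the late stage. CTSZ, another cysteine protease, had log2 fold changes of 0.49 (edgeR FDR 0.0142) and 0.24 (edgeR FDR 0.198). NEU1, the lysosomal sialidase, was at 130 CPM in the naive and 79.8 CPM in the DMSO line, and its early stage log2 fold change was -0.59 (edgeR FDR 0.0363). The remaining 7 genes (CTSA, CTSB, CTSD, CTSL1, GLA, GLB1 and TPP1) were past an FDR of 0.05 in neither stage. Among them TPP1, a tripeptidyl peptidase, was at 208 CPM in the 10 nM line against 116 and 111 CPM in the 15 and 25 nM lines, with 191 and 136 CPM in the controls. GAA, which degrades glycogen, was at 3.80 to 8.62 CPM in the 7 lines, and SGSH, which degrades heparan sulfate, at 5.45 to 9.25 CPM.

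**Figure D3:**
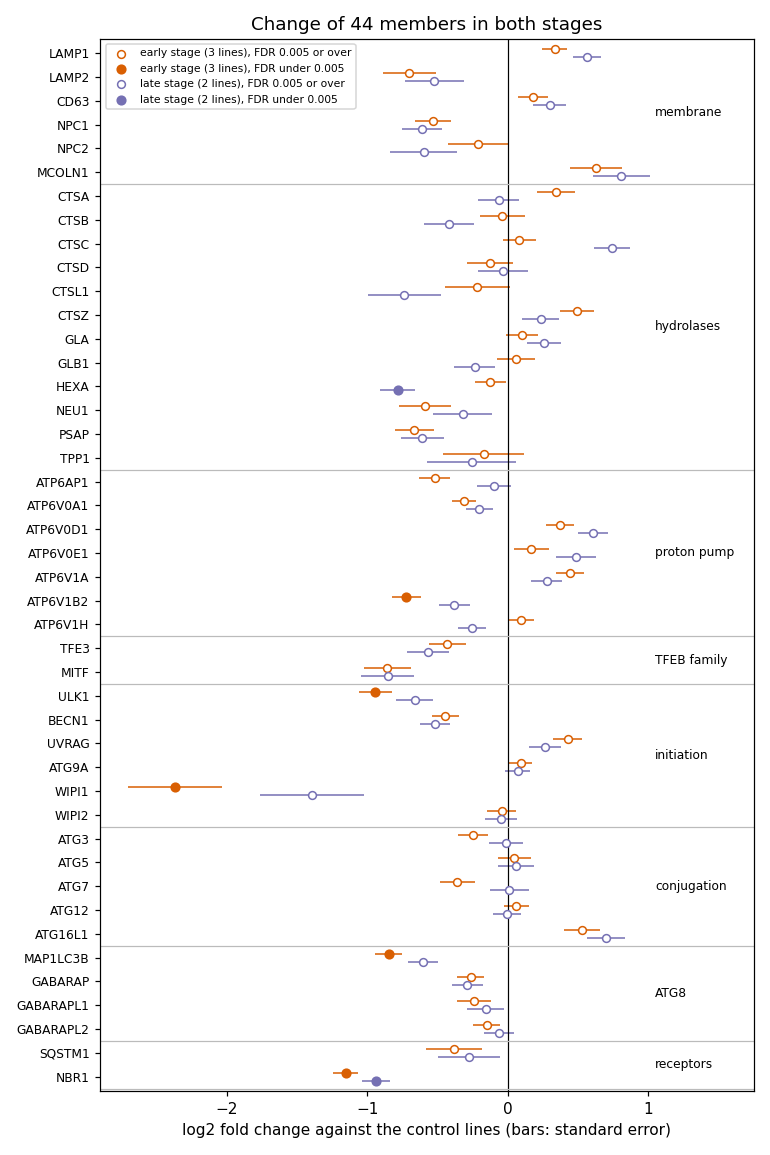
Log2 fold change against the 2 control lines for 44 genes in early stage (orange, 3 lines) and late stage lines (purple, 2 lines), with bars of 1 standard error and filled points at an edgeR FDR under 0.005. The filled points are NBR1, MAP1LC3B, ULK1, WIPI1 and ATP6V1B2 in the early stage and NBR1 and HEXA in the late stage, all to the left of 0.

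The 3 genes of the TFEB family differed in level and in the direction of their values. TFEB itself had counts of 78 and 96 in the naive and DMSO lines, 121, 171 and 108 in the early stage and 124 and 134 in the late stage lines. This is 3.82 and 3.95 CPM in the controls against 4.37 to 6.13 CPM in the DasR lines, all above both controls. Fitted with a limit of 1 CPM, its log2 fold change was 0.45 (edgeR FDR 0.129) and 0.67 (edgeR FDR 0.0647), so that neither passed. TFE3 was at 74.7 and 70.5 CPM in the controls, 46.0, 62.6 and 53.3 CPM in early stage lines and 46.7 and 51.3 CPM in late stage lines. Its log2 fold changes were -0.43 (edgeR FDR 0.0347) and -0.57 (edgeR FDR 0.0247). MITF was at 47.9 and 42.2 CPM in the controls, 30.7, 21.4 and 22.5 CPM in early stage lines and 25.7 and 24.3 CPM in late stage lines, and every DasR line was below both controls. Its log2 fold change was -0.86 in the early stage (SE 0.17, edgeR FDR 0.00608) and -0.85 in the late stage (SE 0.19, edgeR FDR 0.0137), which missed the limit of 0.005 in both. MITF passed that limit in 4 of 14 alternatives in the early stage and in 1 of 14, DESeq2, in the late stage. Of the 5 markers of melanocytes, in which MITF is the lineage factor, none reached 10 CPM in any line and TYR had no counts, which allows up to 0.15 CPM. Scaled by transcript length, TFE3 was at 21.4 and MITF at 7.39 CPM per kilobase in the controls.

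Between the stages, none of the 44 genes passed an FDR of 0.005, and 0% of all genes did. At an unadjusted p under 0.05, 13 of the 44 passed, against 33% of all genes. DESeq2 called HEXA lower and CTSC higher at an FDR of 0.005, where it called 5.46% of all genes lower and 5.41% higher. At an FDR under 0.05 in edgeR, where 6.6% of all genes were higher and 6.1% lower in the late stage, CTSC (log2 difference 0.66, FDR 0.0196) and ATP6AP1 (0.42, FDR 0.0485) were higher. HEXA (log2 difference -0.66, FDR 0.0196) and ATP6V1H (-0.35, FDR 0.0493), a regulatory subunit of the V-ATPase, were lower. Since the stages were defined from these libraries, this comparison is not independent of the grouping.

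The naive and DMSO lines, which were not treated with dasatinib, also differed in these genes. Of the 44 genes, 28 were higher in the naive line, against 48.1% of all genes. The median log2 difference was 0.06 for the 44 genes and -0.01 for all genes. Classes were unlike in this. The hydrolases were higher in the naive line in 10 of 12 genes, with a median log2 difference of 0.35. Of the proton pump genes 3 of 7 were higher, with a median of -0.03. Of the conjugation genes 1 of 5 was higher, with a median of -0.15. Of the 44 genes, 5 were more than 1.5-fold higher in the naive line, or 11.4%, against 3.11% of all genes. These were CTSL1 at 1.64-fold, NEU1 at 1.63-fold, SQSTM1 at 1.62-fold, NPC2 at 1.60-fold and WIPI1 at 1.53-fold, and none was more than 1.5-fold lower. Among early stage lines, 1 of the 12 hydrolases was higher in the 25 nM than in the 10 nM line, against 51.8% of all genes, and 1 of 12 was higher in the 25 nM than in the 15 nM line, against 50.2%. By contrast, 6 of 12 were higher in the 15 nM than in the 10 nM line, against 50.5%. In the late stage, 2 of 12 were higher in the 200 nM than in the 50 nM line, against 49.6% of all genes. Each of these comparisons is between 2 single libraries and has no replicate check. Without the naive library, the median log2 fold change of the 44 genes in the early stage moved from -0.16 to -0.03, and in the late stage from -0.18 to -0.09. It was -0.24 in the early stage without the DMSO library and -0.27 in the late stage without the 50 nM library.

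**Figure D4:**
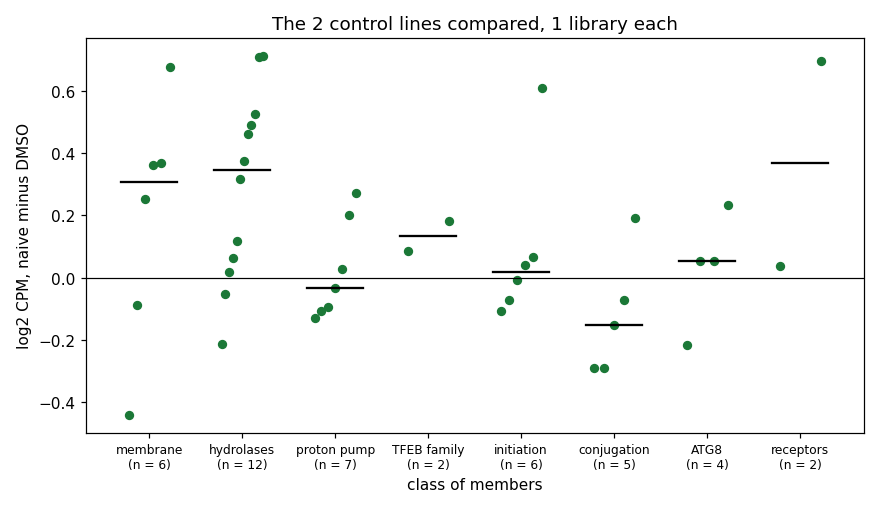
Log2 CPM in the naive line minus the DMSO line for each of the 44 genes by class, 1 library each, with a black bar at the median of the class. The hydrolases have a median of 0.35 with 10 of 12 genes above 0, against 48.1% of all genes, and MCOLN1 is the lowest point at -0.44.

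Other genes of the same pathways were read from 9 lists of 152 genes, of which 133 were measured. In the early stage 3 rose and 15 fell, and in the late stage 1 rose and 5 fell, against the background shares given above for all genes. Among 17 other genes of initiation and nucleation, 1 rose and 4 fell in the early stage, against 7.92% and 10.1% of all genes. In the late stage 1 rose and 3 fell, against 3.42% and 4.56%. PIK3R4, the regulatory subunit of the lipid kinase complex, was at 30.8 and 33.9 CPM in the controls and at 51.9 to 59.2 CPM in the DasR lines, and rose in both stages (log2 fold change 0.84, edgeR FDR 0.000693, and 0.74, edgeR FDR 0.00242), with the late stage call lost in 7 of 14 alternatives. WDR45, a relative of the WIPI proteins, was at 81.5 and 94.0 CPM in the controls and at 36.5 to 50.2 CPM in the DasR lines, and fell in both (log2 fold change -1.23, edgeR FDR 0.000359, and -0.93, edgeR FDR 0.00228). ATG2B, which moves lipid into the growing membrane, was at 119 and 108 CPM in the controls and at 46.7 to 57.7 CPM in the DasR lines, and also fell in both (log2 fold change -1.11, edgeR FDR 0.00045, and -1.22, edgeR FDR 0.000938).

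Of the 19 other lysosomal membrane genes, 3 fell in early stage lines, against 10.1% of all genes, and 1 in late stage lines, against 4.56%, and none rose. LAMP3, a relative of LAMP1 known from dendritic cells, was at 24.2 and 24.5 CPM in the controls and at 2.07 to 4.14 CPM in the DasR lines, with log2 fold changes of -3.02 (edgeR FDR 0.000338) and -2.69 (edgeR FDR 0.00141). Of 31 other hydrolases, 1 rose and 5 fell in the early stage, against 7.92% and 10.1% of all genes, and 1 fell in the late stage, against 4.56%. DNASE2, the acid nuclease of lysosomes, was at 72.2 and 70.9 CPM in the controls, at 12.6 to 17.6 CPM in early stage lines and at 28.9 and 35.6 CPM in the late stage lines. It fell in both stages (log2 fold change -2.29, edgeR FDR 0.000173, and -1.15, edgeR FDR 0.0041), and the late stage call was lost in 7 of 14 alternatives. ACP5, an acid phosphatase known from osteoclasts and macrophages, was at 2.40 and 2.30 CPM in the controls, at 17.5, 37.9 and 28.3 CPM in the 10, 15 and 25 nM lines, and at 3.46 and 0.641 CPM in the 50 and 200 nM lines. It rose in the early stage (log2 fold change 3.57, SE 0.64, edgeR FDR 0.0043), a call lost in 6 of 14 alternatives, while its late stage value was -0.21 (SE 0.68, edgeR FDR 0.835). GUSB encodes the lysosomal beta-glucuronidase and served as the reference gene of the study's PCR. GUSB was at 105 and 100 CPM in the controls, 74.3, 66.8 and 74.8 CPM in early stage lines and 91.5 and 93.9 CPM in late stage lines. It fell in the early stage (log2 fold change -0.51, SE 0.08, edgeR FDR 0.00314), with a late stage value of -0.15 (SE 0.09, edgeR FDR 0.249).

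Of 11 other proton pump genes, 1 rose in the early stage, ATP6V0E2, a small membrane subunit, from 13.3 and 12.5 CPM in the controls to 31.3, 39.4 and 29.4 CPM in the 10, 15 and 25 nM lines (log2 fold change 1.37, edgeR FDR 0.00105). At an FDR under 0.05, 5 of the 11 were higher and 2 were lower in early stage lines, and 4 were higher and none lower in late stage lines, against 22.6% higher and 24% lower of all genes in the early stage and 16.2% and 17.6% in the late stage. Of 11 other cargo receptors, 14 genes of autophagosome fusion and 10 genes of mannose 6-phosphate sorting, 1 in each list fell in the early stage and none passed in the late stage. At the limit of 0.005, 10.1% of all genes fell and 7.92% rose in the early stage, and 4.56% and 3.42% in the late stage. None of 13 regulators of the TFEB family and none of 7 other conjugation and ATG8 genes passed in either stage.

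Markers of other cell types were read beside these values. The labels give the cell type as erythroblast, and all 14 erythroid markers were over 10 CPM in at least 1 line. Their summed level was 4154 and 3588 CPM in the naive and DMSO lines, 12461, 13797 and 10749 CPM in the 10, 15 and 25 nM lines and 6906 and 4765 CPM in the 50 and 200 nM lines, with HBG2, a fetal globin gene, at up to 3049 CPM. The erythroid sum was thus highest in the early stage lines, in which NBR1, MAP1LC3B, WIPI1 and DNASE2 were lowest, and its part in these results was not tested. Every early stage line was above both controls in each erythroid marker except GATA1 and HBE1. GATA1, the erythroid transcription factor, was at 207 and 215 CPM in the controls, 166, 204 and 191 CPM in early stage lines and 235 and 291 CPM in late stage lines, and HBE1, an embryonic globin gene, was at 474 CPM in the 10 nM line against 670 and 593 CPM in the controls. Of 12 markers of monocytes and macrophages, cells rich in lysosomes, 2 reached 10 CPM in any line, and C1QC had no counts. Their sum was 71.1 and 47.3 CPM in the naive and DMSO lines, 110, 28.0 and 45.1 CPM in early stage lines and 97.0 and 99.4 CPM in late stage lines, most of it from LYZ. ITGAM, the other marker to reach 10 CPM, was at 13.3 and 6.86 CPM in the controls, 6.06, 1.745 and 1.145 CPM in early stage lines and 1.44 and 0.732 CPM in the late stage lines, with every DasR line below both controls, and CD14 was at 1.10 CPM or less in every line. Of 8 megakaryocyte markers, 2 reached 10 CPM, and their sum was 82.8 and 63.5 CPM in the naive and DMSO lines, 60.4, 20.5 and 30.7 CPM in the early stage and 82.98 and 112 CPM in the late stage lines. ITGA2B had the highest value of them in any line. It was at 65.7 and 51.8 CPM in the controls, 5.91 to 13.4 CPM in the early stage and 56.9 and 98.0 CPM in the late stage lines. VWF, the other to reach 10 CPM, differed from it, with 0.685 and 0.288 CPM in the controls, 37.1, 3.85 and 7.92 CPM in early stage lines and 13.9 and 6.59 CPM in the late stage lines. The sum of 8 granulocyte markers was 18.8 and 18.4 CPM in the controls and 2.67 to 7.25 CPM in the DasR lines. AZU1 had the highest value of them in any line, at 10.48 CPM. The sum of 6 lymphocyte markers was 25.3 and 18.4 CPM in the controls, 7.62 to 13.04 CPM in the early stage and 26.6 and 33.3 CPM in the late stage lines. The granulocyte sum and ITGAM were lower in every DasR line than in both controls, as NBR1, MAP1LC3B and ULK1 were. The monocyte markers LYZ and CD14 did not share this order. LYZ was at 56.3 and 39.5 CPM in the controls and at 102, 24.4 and 42.0 CPM in early stage lines. In the late stage lines LYZ was at 93.4 and 97.7 CPM. CD14, though low, was higher in every DasR line than in both controls. The lymphocyte sum and ITGA2B were lowest in early stage lines, while VWF was higher in every DasR line than in both controls. The part of these cell type markers in the results was not tested. The summed levels of 5 fibroblast markers were 4.99 to 19.4 CPM and those of 4 epithelial markers 51.0 to 74.5 CPM, nearly all of the latter from EPCAM.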

How the data were processed

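RNA of 7 K562 lines was made into libraries with a directional kit and sequenced by the authors, who aligned the reads to hg19 with STAR. The protocol describes depletion of ribosomal RNA, whereas the labels give the molecule as polyA RNA, and which applies is not settled here. The authors deposited counts of reads per gene (featureCounts, per the labels), without normalization. The deposited tables of early and late stage comparisons were used for gene symbols and length alone, and their fold changes, mean log CPM, p-values and FDR values were not used.

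After TMM scaling, quasi-likelihood F tests were run in edgeR 4.0.16 (R 4.3.3) on the 10452 genes with 10 CPM in at least 2 libraries. The fit held all 7 libraries with a coefficient for each group, and the Benjamini-Hochberg method was applied over all these genes. The common dispersion was 0.0260. Lines of a group differed by more than sampling noise (chi-square per degree of freedom 16.9 to 53.3). DESeq2 1.42.0 and limma 3.58.1 (voom) were alternatives, as were other scalings, filters, thresholds and leaving out each library. The functions were tested on simulated counts. A count of 0 allows up to 3 counts, which is 0.108 to 0.15 CPM, and this covers counting error only.

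Symbols came from the deposited tables and RefSeq (23738 of 25702 IDs), gene positions from a GRCh37 annotation and promoters from RefSeq (GRCh38.p14). Values in every library are given for members past the FDR limit and the TFEB and ATG8 families. From the other pathway lists, the genes named were the 3 of smallest p-value among those that rose, and the 3 among those that fell, in each stage, plus GUSB. The members and lists were chosen with earlier results of these data known.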

Additional observations from a re-analysis of the deposited data

Results flagged for a closer look

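CTSA encodes cathepsin A, the protective protein of lysosomal sialidase and galactosidase. By rank alone, it was the 1 of the 44 genes with early stage lines above both controls and late stage lines below both. It was at 37.01 and 34.1 CPM in the naive and DMSO lines, at 52.3, 44.1 and 38.9 CPM in the 10, 15 and 25 nM lines and at 34.1 CPM in both late stage lines. All early stage lines were above both controls, while the late stage lines were below the DMSO line by less than the rounding of these values, which is no difference. The difference between late and early stage was tested and did not pass (log2 difference -0.41, SE 0.14, edgeR FDR 0.0883).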

How the results depend on the processing

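No paired analysis was possible because each line had 1 library and no control library was matched to each dose. With DESeq2, the genes called were 3548 in the early stage, 2503 in the late stage and 1135 between stages, with 2 members higher and 11 lower, 4 higher and 9 lower, and 1 higher and 1 lower. At an FDR under 0.05 the genes called were 4865, 3542 and 1328, with 7 members higher and 14 lower, 6 higher and 11 lower, and 2 higher and 2 lower. Without a filter, 1287 genes were called in the late stage, with 2 members higher, and 295 between stages. With the 2 groups alone, 257 genes and 0 members were called in the late stage. With voom, library size alone or a limit of 1 CPM, 1 member fell in the late stage, NBR1. Leaving out each library in turn gave 187 to 2074 genes and 1 to 5 members that fell in the early stage, 30 to 601 genes and 0 to 2 members that fell in the late stage, and 0 to 200 genes between stages. The lowest numbers of genes called against the controls came without the naive library, and the 200 genes between stages without the 50 nM library. NBR1 was called in the early stage in all 14 alternative fits, with an FDR of at most 0.00377. Early stage calls were lost in 1 of 14 fits for PIK3R4 and for ATG2B, 2 for MAP1LC3B and for ATP6V0E2, 4 for ULK1 and for WIPI1, and 5 for ATP6V1B2 and for GUSB, and late stage calls in 5 for NBR1 and for WDR45 and 3 for ATG2B, and in 2 of 12 for LAMP3. Of the 44 genes, 37 to 44 kept their sign in the early stage (37 without the naive line), 37 to 44 in the late stage (37 without the naive line) and 35 to 44 between stages (35 without the 50 nM line). Signs were followed for the members past the limit, TFE3, MITF, the ATG8 family and the genes named from the other lists. They turned for 5 genes, none in a comparison where the gene passed the limit. The late stage log2 fold change of GABARAPL2 ranged from -0.150 to 0.021 over the left-out libraries, positive without the 50 nM line, and that of ACP5 from -1.87 to 0.56, positive without the 200 nM line. Between stages, GABARAP was at 0.0056 with a limit of 1 CPM, 0.016 without a filter, 0.0099 without the 15 nM line and 0.030 without the 200 nM line, and at its lowest, -0.075, without the 50 nM line. MITF was at 0.18 without the 10 nM line, -0.098 without the 15 nM line, -0.066 without the 25 nM line and -0.039 without the 50 nM line, and GABARAPL1 at -0.042 without the 50 nM line and 0.20 without the 200 nM line. The cause of these differences was not tested. Each line was sequenced once, which limits every test to the spread between lines at different doses.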
